A study of Arabidopsis thaliana with 6 samples.

Results

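The mitochondrial open reading frame and tRNA features described here are 88 single gene IDs of the Arabidopsis thaliana mitochondrial genome. They were chosen by ID alone: every single mitochondrial ID in the count files was taken, except 4 that cover the ribosomal RNA regions and 38 numbers of protein-coding genes with a known function. They are 88 of 128 single and 137 mitochondrial IDs in all, among 60936 counted features. Small RNAs of pollen, accession Col, were sequenced from 3 paps1-3 libraries, numbered 16, 20 and 26, and from 3 wild type libraries, numbered 15, 19 and 25. The paps1-3 allele is a mutant form of PAPS1, a nuclear poly(A) polymerase. In each isolation, mutant and wild type grains were sorted from a common sample, so sort gate and genotype cannot be told apart, and the property that the sort used was not among the labels read here. Nothing in the labels ties the isolations to different plants; the p-values therefore cover the scatter among these 6 libraries, part or all of which may be technical.

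Plant mitochondria keep their own small genome, with genes for respiratory chain subunits, ribosomal proteins, ribosomal RNAs and a set of tRNAs, and with many open reading frames that have no known function. A tRNA carries an amino acid to the ribosome and reads the codon with its 3-base anticodon, and some plant mitochondrial tRNA genes descend from chloroplast DNA. Fragments of tRNAs are a common class of small RNA, and Arabidopsis chromosome 2 carries a large insertion of mitochondrial DNA that repeats many of these genes in the nucleus.

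The reference annotation does not pair the mitochondrial IDs with tRNA names, so no member could be called a tRNA gene from it. Counts gave another handle. Of 20 members with 500 reads or more, 18 had a partner. A partner is another ID with near-equal counts over 66 cells, 1 for each library and read length. A nuclear ID was taken as a partner only if nearly its whole length was also found, nearly identical, in the mitochondrial genome. The chi-square per cell between a member and its partners was 0.643 to 1.6. The other 68 members had too few reads and were not compared. The partner was 1 or more of 13 chromosome 2 tRNA genes for 13 members, the protein-coding chromosome 2 gene AT2G07695 for ATMG01280, and only another member for the pairs ATMG00330 with ATMG00780 and ATMG00100 with ATMG00700. The limits for this agreement were set after the counts had been seen. Each of the 13 nuclear tRNA genes lies in the RefSeq mitochondrial genome without a mismatch. The choice of nuclear partners had largely required such a match, so it is no separate result. With identical copies, reads of these members cannot be told apart from reads of the chromosome 2 copies. The genes below, from RefSeq TAIR10.1, are shown because they are the partners of members with many reads, a large change or a changed read length; capitals mark the anticodon.
Partner of ATMG00350, AT2G07762, tRNA-Pro, chr2:3495012-3495086, plus strand: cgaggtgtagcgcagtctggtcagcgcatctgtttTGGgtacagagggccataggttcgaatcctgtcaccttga
Partner of ATMG00190, AT2G07756, tRNA-Gly, chr2:3444363-3444434, minus strand: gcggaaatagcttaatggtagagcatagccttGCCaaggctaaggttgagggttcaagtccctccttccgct
Partner of ATMG00250, AT2G07758, tRNA-Met, chr2:3462078-3462151, plus strand: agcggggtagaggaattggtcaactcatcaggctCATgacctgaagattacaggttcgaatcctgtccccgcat
Partner of ATMG00390, AT2G07765, tRNA-Tyr, chr2:3497358-3497440, plus strand: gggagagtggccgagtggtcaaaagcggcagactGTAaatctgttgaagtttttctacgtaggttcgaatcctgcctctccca
Partner of ATMG00800, AT2G07752, tRNA-Glu, chr2:3303244-3303315, minus strand: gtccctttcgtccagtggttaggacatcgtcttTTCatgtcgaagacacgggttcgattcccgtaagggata
Partner of ATMG01160 and ATMG00420, AT2G07766, tRNA-Ser, chr2:3503522-3503608, plus strand: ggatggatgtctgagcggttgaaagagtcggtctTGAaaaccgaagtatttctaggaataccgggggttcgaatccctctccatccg
Partner of ATMG00380, AT2G07764, tRNA-Asn, chr2:3496440-3496511, plus strand: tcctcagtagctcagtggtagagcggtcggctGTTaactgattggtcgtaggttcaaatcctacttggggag
Partner of ATMG00460, AT2G07794, tRNA-Ile, chr2:3383397-3383477, minus strand: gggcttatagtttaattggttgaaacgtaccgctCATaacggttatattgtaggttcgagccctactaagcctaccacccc
Partner of ATMG00950, AT2G07746, tRNA-Gln, chr2:3276440-3276511, plus strand: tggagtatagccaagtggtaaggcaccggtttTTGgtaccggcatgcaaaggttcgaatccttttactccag

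Reads per library show the agreement by which partners were chosen, so they are no second result. ATMG00350 had 2816, 3908 and 7705 reads in the paps1-3 libraries and 427, 1069 and 724 reads in the wild type libraries, where AT2G07762 had 2865, 3844 and 7764 reads in paps1-3 and 466, 1035 and 662 reads in wild type. The counts were near-equal and not identical, since 65 of the 66 cells differed between the 2 IDs. ATMG01160 and ATMG00420 matched each other and both AT2G07766 and AT2G07793, whose tRNA-Ser sequences are the same, and ATMG00380 was close to the chloroplast IDs ATCG00990 and ATCG01140, with a chi-square per cell of 1.6 and 1.4. The other members with tRNA partners were ATMG00230 with AT2G07757 (tRNA-Ser, anticodon GGA), ATMG01340 with AT2G07755 (tRNA-Met, CAT) and ATMG00930 with AT2G07748 (tRNA-Trp, CCA). Near-equal counts of a member and its nuclear partner may come from the same reads, which was not tested. Neither is therefore independent evidence of the other.

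**Figure D1:**
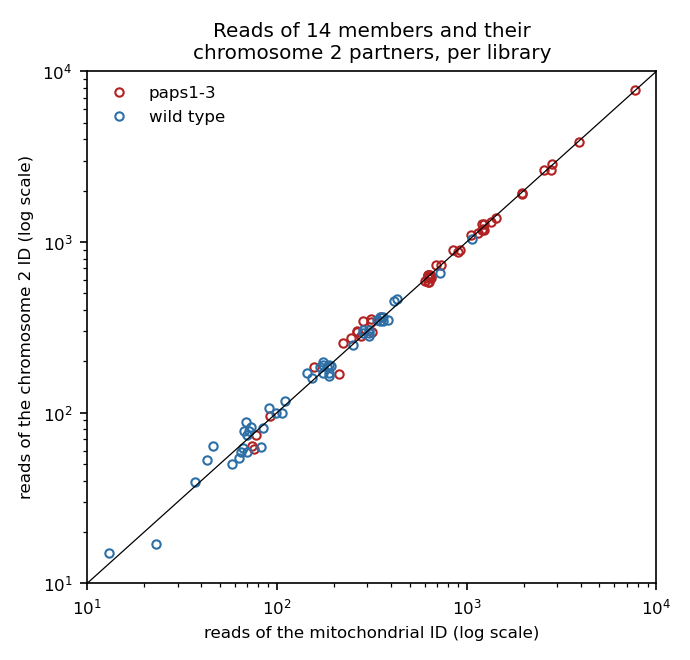
Reads of 14 members with a chromosome 2 partner (x axis, log scale) against reads of that partner (y axis, log scale), with 1 circle for each library and partner; the line marks equal reads. Partners were chosen by near-equal counts, so the circles had to lie near the line. ATMG00350 had 7705 and its partner 7764 reads in paps1-3 library 26.

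Counted reads came to 7916557, 5562287 and 9922763 in the paps1-3 libraries and to 10139424, 9757853 and 9312167 in the wild type libraries. Summed marker reads for the vegetative cell of the grain were 903 to 1390 RPM, reads scaled to the counted reads of the library, in paps1-3 and 1428 to 1700 in wild type, with none of the 5 markers at 0 in every library. VGD1 held most of that sum, and the markers did not move alike. VGD1, AT5G45880 and PTEN1 had fewer reads in every paps1-3 library than in any wild type library. AtVEX1 went the other way, with 35, 22 and 61 reads in paps1-3 and 18, 16 and 14 in wild type. PPME1 had 1283, 1059 and 2308 reads in paps1-3 and 971, 1180 and 1132 in wild type. All 6 sperm cell markers with a single ID were also detected, at 7.58 to 8.97 RPM summed in paps1-3 and 14.4 to 14.6 RPM in wild type. Leaf photosynthesis markers summed to 5.18 to 10.7 RPM in paps1-3 and 13.9 to 22.7 RPM in wild type, and tapetum markers to 0.632 to 1.11 RPM in paps1-3 and 1.85 to 3.16 RPM in wild type; none of the 10 and 7 genes was at 0 in every library, and their part in the results below was not tested. Wild type library 15 had 27.4% of all its reads at 18 to 20 nt, against 42.9% and 47.0% in the other wild type libraries, and paps1-3 library 16 had the lowest TMM factor, 0.546. Fewer cells of a type, or fewer mitochondria per cell, and less RNA in each cannot be told apart in such bulk libraries.

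Small RNA reads of the 88 members were more frequent in paps1-3 pollen than in wild type pollen. The members held 16073, 17248 and 34787 reads in the paps1-3 libraries, against 3235, 6194 and 5003 reads in the wild type libraries. As a share of all counted reads this was 0.203%, 0.310% and 0.351% in paps1-3 and 0.0319%, 0.0635% and 0.0537% in wild type. The mean share was 0.288% ± 0.0762 in paps1-3 and 0.0497% ± 0.0162 in wild type (SD, n = 3 each), a ratio of 5.79, and the groups did not overlap. The 4 rRNA-region IDs held 14.2% ± 2.32 of all reads in paps1-3 and 2.11% ± 0.710 in wild type, a ratio of 6.72. The 36 protein-coding IDs of known function held 1.02% ± 0.322 in paps1-3 and 2.78% ± 0.246 in wild type, a ratio of 0.369, with 84.2% of that list's reads on the single gene ATMG00270. Nuclear tRNA features made up 12.9% ± 1.69 of reads in paps1-3 and 12.2% ± 0.867 in wild type, with overlapping groups.

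Among mitochondrial reads outside the rRNA-region IDs, the members made up 20.7%, 17.7% and 25.0% in the paps1-3 libraries and 1.14%, 2.04% and 2.06% in the wild type libraries. The means were 21.1% ± 3.67 in paps1-3 and 1.75% ± 0.526 in wild type (SD, n = 3 each), a ratio of 12.1. ATMG00270 alone, at 7791 RPM in paps1-3 and 24074 RPM in wild type on average, sets much of that denominator.

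Most member reads lay in a minority of IDs. Sorted by wild type reads alone, a split added after the data had been seen, the 23 members with 100 or more wild type reads summed to 2004, 3067 and 3469 RPM in paps1-3 and 279, 587 and 487 RPM in wild type, a ratio of 6.32 with no overlap. The 65 members with fewer summed to 26.5, 33.6 and 36.4 RPM in paps1-3 and 39.9, 48.1 and 50.7 RPM in wild type, a ratio of 0.696. Of the 23, 19 were higher in every paps1-3 library than in any wild type library. Among all features with as many wild type reads, 7.81% separated upward in this way. In the other direction 1 of the 23 stood lower. Of the 65, 3 stood higher and 24 lower. These last counts have no share over all features beside them, so nothing is read from them. The 18 members with a partner summed to 1977, 3022 and 3417 RPM in paps1-3 and 250.2, 553 and 451 RPM in wild type. A partner was sought only for members with 500 reads or more over all 6 libraries, most of them from paps1-3, so the change helped to decide which members were compared.

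Per feature, changes were tested with edgeR's quasi-likelihood test on TMM-scaled counts, with Benjamini-Hochberg adjustment at 0.05 over all features. A count filter kept 33 of the 88 members, so the other 55 have no test. A member could pass that filter through the reads of 1 genotype alone. Of the 33, 21 were higher in paps1-3, none was lower at an adjusted p under 0.05 (DESeq2 and limma-trend also called none lower), and 12 were not called; 22 had an unadjusted p under 0.05. The 21 are not all separate signals. ATMG00330 with ATMG00780, ATMG01160 with ATMG00420 and ATMG00100 with ATMG00700 match in counts and are among them. Over all 13464 features tested, 14.3% were called higher and 3.99% lower. Of the 33 protein-coding IDs tested, 25 were called higher and 0 lower, although their summed share of reads was lower in paps1-3. By total reads these were 17 higher and 2 lower. A rise is thus not particular to the members. The median log2 fold change, paps1-3 over wild type, was 2.66 over the members tested, 1.95 over the 33 protein-coding IDs tested, 3.43 over the rRNA-region IDs and −0.15 over all features. TMM sets the zero line: scaled to total counted reads, the median of all features was −0.94, 20 members were called higher and 3 lower, beside 6.02% of features higher and 40.3% lower. All 18 members with a partner were called higher under both scalings. Without paps1-3 library 16 and wild type library 15, 22 members were called higher and none lower by edgeR, and all 21 calls were among the 22.

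The 16 members with 1000 reads or more over the 6 libraries held 93.8% of all member reads. For 13 of them the wild type libraries summed to under 1000 reads, the lowest being 141, so they reached that level through paps1-3 and had to stand high there. In RPM all 16 stood above every wild type library, as did 13.7% of all features with as many reads, and nothing is read from that count. The ratios of the mean RPM were 3.57 to 11.1. The log2 fold changes were 2.66 to 4.33 on the TMM scale and 1.84 to 3.47 by total reads, the scale of RPM. None of the 16 is named in the reference as a protein gene; 12 have a tRNA partner and 4 form the pairs ATMG00330 with ATMG00780 and ATMG00100 with ATMG00700.

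**Figure D2:**
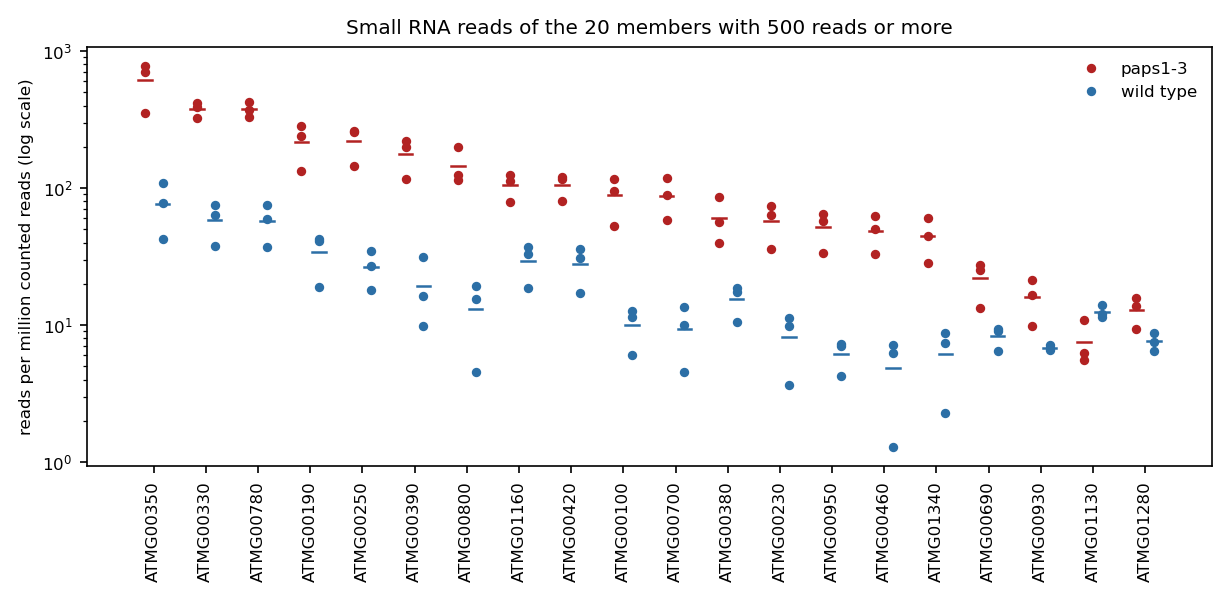
RPM (y axis, log scale) of the 20 members with 500 reads or more, with 1 point per library, paps1-3 left of wild type for each ID, and a bar at each group's mean. The 16 leftmost members have ratios of 3.57 to 11.1; ATMG01130 is the member of the 20 with the wild type libraries on top.

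ATMG00350, whose partner is a tRNA for proline, had the most reads. It stood at 356, 703 and 777 RPM in the paps1-3 libraries and at 42.1, 109.6 and 77.8 RPM in the wild type libraries. The lowest paps1-3 library was thus over 3 times the highest wild type library. Its log2 fold change was 3.78 ± 0.39 (SE, edgeR, adjusted p = 5.34e-05). By total reads, the scale of the RPM values, it was 3 (edgeR, adjusted p = 0.000334). Folds given below are on the TMM scale unless stated, and lie above those of the RPM values beside them.

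ATMG00330 and ATMG00780, which match each other in counts and whose role is not annotated here, came next. ATMG00330 had 323, 392 and 418 RPM in paps1-3 and 38.1, 74.7 and 63.9 RPM in wild type. ATMG00780 had 331, 372 and 423 RPM in paps1-3 and 37.3, 75.3 and 59.4 RPM in wild type. The 2 IDs are read as 1 signal, whose log2 fold change was 3.52 ± 0.35 for ATMG00330 (edgeR, adjusted p = 4.01e-05) and 3.56 ± 0.36 for ATMG00780 (adjusted p = 4.26e-05).

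Members with partners for glycine, initiator-type methionine and tyrosine tRNAs rose by similar amounts. ATMG00190, partner tRNA-Gly, had 132, 240.2 and 282 RPM in paps1-3 and 19.0, 42.5 and 41.1 RPM in wild type, a log2 fold change of 3.47 ± 0.35 (edgeR, adjusted p = 4.26e-05). ATMG00250, partner AT2G07758, whose mitochondrial copy RefSeq names trnfM(CAT), had 145, 257 and 259 RPM in paps1-3 and 18.1, 34.4 and 27.0 RPM in wild type, a log2 fold change of 3.84 ± 0.33 (adjusted p = 2.17e-05). ATMG00390, partner tRNA-Tyr, had 116, 220.4 and 198 RPM in paps1-3 and 9.76, 31.5 and 16.4 RPM in wild type, a log2 fold change of 4.01 ± 0.41 (adjusted p = 5.04e-05). In all of them paps1-3 library 16 was the lowest of its group and wild type library 15 the lowest of its group, and the groups did not overlap.

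The highest fold change belonged to ATMG00800, partner of a glutamate tRNA gene. It had 114, 124 and 198 RPM in paps1-3 and 4.54, 19.3 and 15.6 RPM in wild type, a log2 fold change of 4.33 ± 0.46 (edgeR, adjusted p = 5.91e-05). ATMG00460, whose partner RefSeq lists as an isoleucine tRNA with a CAT anticodon, had 33.2, 50.2 and 62.8 RPM in paps1-3 and 1.28, 7.17 and 6.23 RPM in wild type, a log2 fold change of 4.15 ± 0.44 (adjusted p = 5.91e-05). ATMG00950, partner tRNA-Gln, had 33.4, 57.4 and 64.4 RPM in paps1-3 and 4.24, 7.28 and 6.98 RPM in wild type, a log2 fold change of 3.85 ± 0.27 (adjusted p = 1.52e-05). For ATMG00460 wild type library 15 held 13 reads, so its fold rests on few wild type counts.

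The pair ATMG00100 and ATMG00700 moved by a like amount. ATMG00100 had 53.2, 95.5 and 116 RPM in paps1-3 and 6.02, 12.6 and 11.5 RPM in wild type, a log2 fold change of 3.92 ± 0.32 (edgeR, adjusted p = 1.81e-05). ATMG00700 had 58.0, 88.6 and 117 RPM in paps1-3 and 4.54, 13.6 and 9.99 RPM in wild type, a log2 fold change of 4.03 ± 0.37 (adjusted p = 2.93e-05). The groups stood apart in both.

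The tRNA-Ser genes with anticodon TGA and the tRNA-Asn gene were partners of the 3 members with the lowest fold changes of the 16. ATMG01160, partner tRNA-Ser with anticodon TGA, had 79.0, 113 and 124 RPM in paps1-3 and 18.5, 37.1 and 32.8 RPM in wild type, a log2 fold change of 2.66 ± 0.30 (edgeR, adjusted p = 8.70e-05). ATMG00420, which shares that partner, had 80.1, 117 and 121 RPM in paps1-3 and 17.2, 35.7 and 30.6 RPM in wild type, a log2 fold change of 2.75 ± 0.31 (adjusted p = 7.79e-05). ATMG00380, partner tRNA-Asn, had 39.5, 56.1 and 85.6 RPM in paps1-3 and 10.6, 17.3 and 18.8 RPM in wild type, a log2 fold change of 2.75 ± 0.29 (adjusted p = 5.46e-05). Its chloroplast partners ATCG00990 and ATCG01140 had log2 fold changes of 2.23 ± 0.26 and 2.29 ± 0.26. Whether reads of ATMG00380 come from the mitochondrion, the chloroplast or the nucleus cannot be told from these counts; RefSeq notes its mitochondrial tRNA gene as chloroplast-like. The remaining members of the 16, ATMG00230 with its tRNA-Ser partner of anticodon GGA and ATMG01340 with its tRNA-Met partner, had log2 fold changes of 3.62 ± 0.35 and 3.67 ± 0.38.

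**Figure D3:**
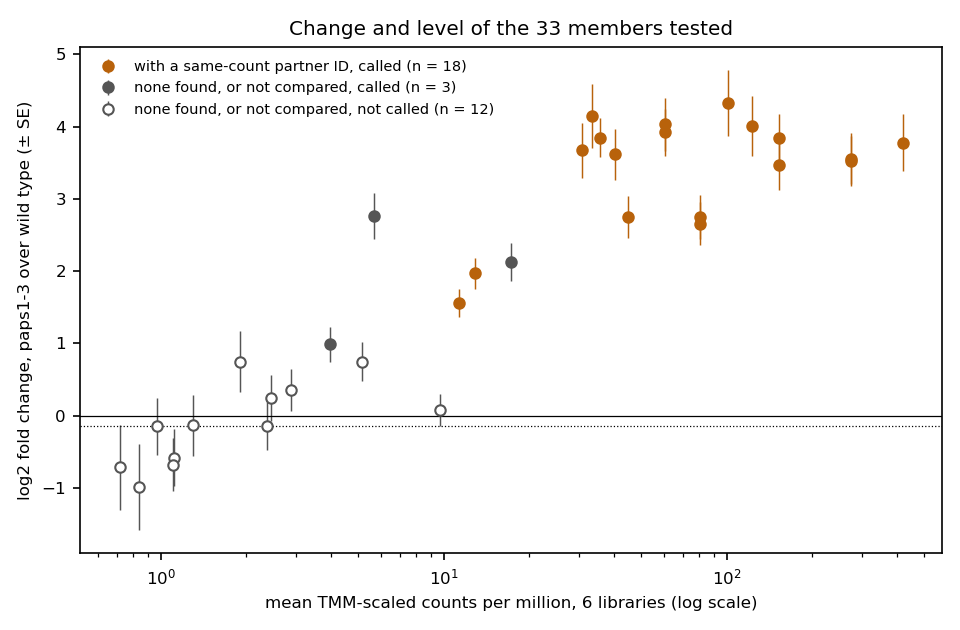
Log2 fold change, paps1-3 over wild type, with its SE (y axis) against the mean TMM-scaled CPM over the 6 libraries (x axis, log scale) for the 33 members tested; filled symbols were called, and the dotted line is the median of all features, −0.15. The 18 members with a partner lie at 1.56 to 4.33 and the 12 members not called lie around 0. A partner was sought only for members with 500 reads or more, most of them from paps1-3, so that choice favoured members that rose.

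Below 1000 reads the members were mixed. Of the 11 with 100 or more but under 1000 reads, 4 were higher in every paps1-3 library in RPM and 2 lower, where 9.00% of all features in that range separated upward and 50.7% downward. ATMG00930, partner tRNA-Trp, had 9.85, 16.5 and 21.4 RPM in paps1-3 and 6.61, 7.17 and 6.77 RPM in wild type, a log2 fold change of 1.97 ± 0.22 (edgeR, adjusted p = 7.49e-05). ATMG01280, named in RefSeq notes as a protein with a transmembrane domain like that of cytochrome c oxidase subunit II, had 9.35, 13.7 and 15.8 RPM in paps1-3 and 6.51, 7.48 and 8.81 RPM in wild type, a log2 fold change of 1.56 ± 0.19 (adjusted p = 0.000144). By total reads the log2 fold changes were 1.22 for ATMG00930 (edgeR, adjusted p = 0.00928) and 0.77 for ATMG01280 (adjusted p = 0.0481). At 25 to 28 nt, with TMM scaling, that of ATMG01280 was −0.07 ± 0.34 (adjusted p = 0.869). The wild type libraries of both lie within a narrow range, and the lowest paps1-3 library is close above it.

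Among the members with no known partner, 3 were called higher. Only ATMG00690 of these had enough reads to be compared for a partner; ATMG01350 and ATMG01200 were picked after their values were seen. ATMG00690 had 13.3, 25.2 and 27.4 RPM in paps1-3 and 9.37, 9.02 and 6.44 RPM in wild type, a log2 fold change of 2.13 ± 0.27 (edgeR, adjusted p = 0.000172). ATMG01350 had 7.20, 5.75 and 8.67 RPM in paps1-3 and 1.085, 1.95 and 2.79 RPM in wild type, a log2 fold change of 2.76 ± 0.32 (adjusted p = 0.000106). ATMG01200 had 3.03, 4.67 and 4.33 RPM in paps1-3 and 2.76, 3.79 and 3.97 RPM in wild type, and its groups overlapped. Its log2 fold change of 0.99 ± 0.24 (adjusted p = 0.0134) was 0.19 under total-read scaling (adjusted p = 0.658), so that call depended on the scaling. ATMG00690 and ATMG01350 were called under both scalings.

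ATMG01130 went the other way in RPM, with 5.56, 6.29 and 10.9 RPM in paps1-3 and 11.4, 12.1 and 14.0 RPM in wild type. Its groups did not overlap, but with TMM scaling the log2 fold change was 0.08 ± 0.22 (edgeR, adjusted p = 0.842), and by total reads it was −0.71 (adjusted p = 0.0734). Other members with a protein name in RefSeq notes had few reads. ATMG00590, a cytochrome b/b6 protein by its note, had 3.28, 5.75 and 5.85 RPM in paps1-3 and 2.86, 5.43 and 7.30 RPM in wild type, with a log2 fold change of 0.75 ± 0.27 (edgeR, adjusted p = 0.0745; 0.0235 with the replicate block). ATMG01090, noted as ATP synthase 9, had 1.26, 3.06 and 1.92 RPM in paps1-3 and 2.37, 3.69 and 2.69 RPM in wild type, with overlapping groups and a log2 fold change of 0.24 ± 0.32 (adjusted p = 0.648). ATMG00280, noted as a RuBisCO large chain domain, a chloroplast-type protein of carbon fixation, had a log2 fold change of 0.35 ± 0.29 (adjusted p = 0.444). ATMG01110, noted as a mitovirus RNA polymerase, had 0.505, 0.539 and 1.01 RPM in paps1-3 and 1.28, 1.33 and 1.5 RPM in wild type, and its log2 fold change was −0.15 ± 0.40 (adjusted p = 0.852).

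Most members were sparsely covered. There were 57 with 10 to 99 reads over all 6 libraries and 4 with fewer, and every member had a read in some library. In paps1-3 libraries 16, 20 and 26, 18, 19 and 5 members had no read, against 1, 1 and 0 in wild type libraries 15, 19 and 25. Among the 57, the RPM ratio was below 1 for 53, with a median of 0.498; among all 26964 features with as many reads it was below 1 for 87.1%, with a median of 0.462. The 57 stood higher in every paps1-3 library for 2 IDs and lower for 22, while 1.91% of all features in that range separated upward and 34.0% downward. The sparse members thus had values near those of other sparse features. The 2 that stood higher were ATMG00910, with 11, 5 and 15 reads in paps1-3 and 4, 4 and 6 reads in wild type, and ATMG00400, with 6, 5 and 4 reads in paps1-3 and 1, 3 and 2 reads in wild type; both are noted as unknown proteins and both failed the count filter. With 3 to 9 reads per wild type library, ATMG00710 had none in paps1-3, a difference that rests on 17 reads in all. These 3 were picked after their values were seen.

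Read lengths of the members spread from 18 to 28 nt, the whole range counted. Summed over members, the mean in paps1-3 was highest at 23 nt, with 287, 428 and 522 RPM in the libraries, against 34.0, 77.4 and 53.9 RPM in wild type. The 18-nt reads had 277, 466 and 412 RPM in paps1-3 and 27.3, 82.7 and 79.1 RPM in wild type, so that in paps1-3 library 20 they exceeded the 23-nt reads. The groups did not overlap at any of the 11 lengths, and the ratio of the means ran from 3.32 at 26 nt to 8.16 at 25 nt. Reads of 18 to 20 nt made up 36.2% ± 3.08 of member reads in paps1-3 and 34.7% ± 7.22 in wild type (SD, n = 3 each), with overlapping groups and a difference of 1.5 percentage points. That difference had no stable sign: it was −2.55 without wild type library 15, −2.49 without wild type library 15 and paps1-3 library 16, −0.07 without paps1-3 library 20, and up to 4.36 with another library left out, wild type library 25. Wild type library 15, which had fewest 18- to 20-nt reads over all features too, had 26.6% of member reads there.

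**Figure D4:**
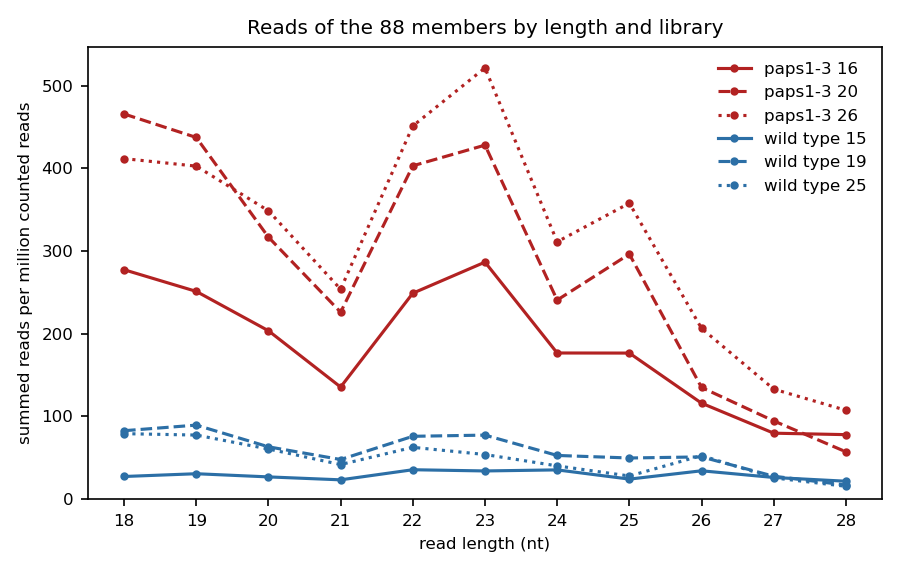
Summed RPM of the 88 members (y axis) by read length in nt (x axis), with 1 line per library, paps1-3 in red and wild type in blue. The paps1-3 libraries lie above every wild type library at each length. Their highest value is at 23 nt in libraries 16 and 26 and at 18 nt in library 20.

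Tested separately by length with edgeR, most members tested were called higher in each range. The count filter was applied anew in each range, and a member could pass it through its paps1-3 reads alone. A member with few wild type reads was thus tested only if it stood high in paps1-3, and the numbers called are a description. At 18 to 20 nt, 20 of 23 members tested were called higher and none lower (21 had an unadjusted p under 0.05), beside 18.8% and 6.90% of all features. At 21 to 24 nt, 21 of 28 were called higher and none lower (24 had an unadjusted p under 0.05), beside 13.4% and 3.47%. At 25 to 28 nt, 19 of 21 were called higher and 1 lower, beside 24.2% and 17.4%. The lower one was ATMG01130, with a log2 fold change of −0.96 ± 0.31 at 25 to 28 nt (adjusted p = 0.0293); it was −0.71 without paps1-3 library 16 (adjusted p = 0.0953) and −0.23 when scaled to miRNA loci (adjusted p = 0.699). DESeq2 and limma-trend were not run by length range.

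Read length differed between genotypes for some members. A test of whether the change at 18 to 20 nt differs from that at 21 to 24 nt, with edgeR and the library in the model, called 1 member more positive and 4 more negative among 28 tested, beside 1.90% and 0.436% of all features. ATMG00190, the tRNA-Gly partner, had 31.5%, 34.8% and 29.5% of its reads at 18 to 20 nt in paps1-3 and 58.6%, 55.2% and 70.2% in wild type. At 21 to 24 nt it had 51.8%, 50.2% and 50.0% in paps1-3 and 25.4%, 32.8% and 19.8% in wild type. Its peak was thus at 24 nt in paps1-3, with 18.6% of reads, and at 19 nt in wild type, with 27.4%. The difference of log2 fold changes in this joint test was −1.93 ± 0.26 (adjusted p = 3.01e-10). Fits made separately per range, each with its own scaling, gave 2.24 at 18 to 20 nt and 4.51 at 21 to 24 nt. The joint value is therefore not the plain difference of these folds.

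ATMG00380, the tRNA-Asn partner, shifted in the same direction. It had 55.3%, 66.4% and 68.2% of its reads at 21 to 24 nt in paps1-3 and 23.4%, 42.0% and 34.9% in wild type, and the difference of log2 fold changes was −1.79 ± 0.29 (edgeR, adjusted p = 1.71e-07). For ATMG00190 and ATMG00380 the call held with each library left out in turn. ATMG00700 had 47.5%, 49.9% and 50.6% at 21 to 24 nt in paps1-3 and 50.0%, 39.1% and 23.7% in wild type, so its groups overlapped there. Its difference of −1.17 ± 0.31 (adjusted p = 0.00857) was not called without paps1-3 library 20 or wild type library 19 or 25, and it was −0.71 without wild type library 25 (adjusted p = 0.489). Its count partner ATMG00100, at −1.01 ± 0.30 (adjusted p = 0.0375), was not called without paps1-3 library 20 (adjusted p = 0.181) or any 1 of wild type libraries 15, 19 and 25 (adjusted p = 0.349, 0.171 and 0.0637).

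ATMG00690 shifted toward shorter reads. It had 37.1%, 45.0% and 36.0% of its reads at 18 to 20 nt in paps1-3 and 13.7%, 29.5% and 25.0% in wild type. The difference of log2 fold changes was 1.28 ± 0.36 (edgeR, adjusted p = 0.0218), and it was not called without any 1 of the 3 paps1-3 libraries or without wild type library 15 (adjusted p of 0.181 to 0.468), nor by total reads (adjusted p = 0.145). Without paps1-3 library 16 the value was 0.64.

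**Figure D5:**
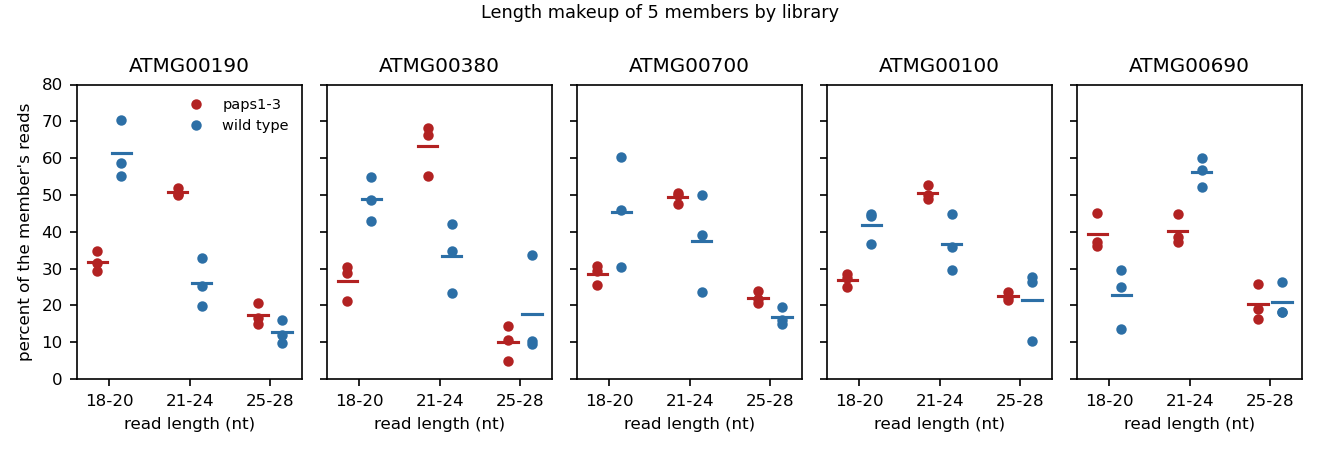
Percent of a member's reads (y axis) at 18-20, 21-24 and 25-28 nt (x axis) for the 5 members whose change differed between the 2 shorter ranges, with 1 point per library, paps1-3 left of wild type, and a bar at the mean. For ATMG00190 the 21-24 nt share is 50.0% to 51.8% in paps1-3 and 19.8% to 32.8% in wild type, and ATMG00690 is the 1 with the higher 18-20 nt share in paps1-3.

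Length profiles of other members were alike between genotypes for some and apart for others, with no test of the peaks. Peaks given here are those of the pooled reads of a genotype. ATMG00350 peaked at 25 nt, with 21.9% of its reads in paps1-3 and 21.3% in wild type. Those were 549, 920 and 1697 reads in paps1-3 and 98, 247 and 127 reads in wild type. Wild type library 25 had slightly more reads at 22 nt, 132, and at 23 nt, 128. RefSeq marks a clustered organellar short RNA (cosRNA) at the mitochondrial copies of 8 partner genes. On trnP(TGG), the copy of the partner of ATMG00350 printed above, it covers the first 25 bases. Of the others, those of trnG(GCC), trnfM(CAT), trnN(GTT) and trnS(GGA) have 31, 33, 32 and 16 nt, outside the lengths counted, so no peak could match them. The cosRNA of trnE(TTC) has 28 nt where ATMG00800 peaked at 23 nt in paps1-3, and that of trnQ(TTG) 28 nt where ATMG00950 peaked at 18 nt. In wild type only 1 library had that 18-nt peak of ATMG00950. On trnM(CAT) they have 32 and 23 nt, where ATMG01340 peaked at 24 nt in paps1-3 and at 18 nt in wild type. The files give no read positions, so whether any member's reads are these RNAs was not tested. ATMG00250 peaked at 22 nt, with 30.6% of reads in paps1-3 and 23.8% in wild type, and ATMG00420 had most reads at 18 nt in paps1-3, 40.6%, and at 19 nt in wild type, 28.5%. ATMG00330 peaked at 26 nt in wild type, with 24.5% of its reads, and in paps1-3 it had equal highest values at 19 and 23 nt, 14.1% each. Its 25- to 28-nt reads were 27.3%, 20.1% and 28.3% in paps1-3 and 58.3%, 41.4% and 49.4% in wild type, and its log2 fold change was 1.88 at 25 to 28 nt and 4.09 at 21 to 24 nt. That difference between the longer ranges was not tested.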

How the data were processed

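Whole RNA of sorted pollen was made into small RNA libraries with a TruSeq kit, per the labels' protocols. The authors deposited whole-number read counts per annotated segment, not normalised, in 1 column per read length (18 to 28 nt), as the file headers show; the unit is the count, per the file headers. Trimmomatic, BWA, SAMtools, bedtools and TAIR10 are named in the submitters' processing notes. No source read here says how multiply placed reads or strand were handled. Counts were summed per ID over 176473 segments; the intervals that counting error would give were not computed, since tests ran over libraries.

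The 88 members, the comparison lists and the tests were chosen with earlier results of these data known. A pair of protein-coding numbers occurs only in joined IDs, which were left out. Named members were the 12 with the highest TMM-scaled level, the 8 largest changes called in each direction, the 4 smallest p in the length test and examples of shared counts; any other ID is marked as picked after its values, or stands for a partner or protein note. No member was paired with a tRNA gene by the reference.

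Features were tested with edgeR 4.0.16 in R 4.3.3 (robust quasi-likelihood, TMM, filterByExpr, Benjamini-Hochberg at 0.05 over all features). TMM factors were 0.546, 0.870 and 0.893 in paps1-3 and 1.12, 1.38 and 1.53 in wild type. The length test took 18 to 20 and 21 to 24 nt of each library as 2 columns, scaled together by TMM. Its values are therefore not plain differences of the folds fitted per range. Partners needed 500 reads (1000 for organelle IDs), a chi-square per cell of at most 2 and a cosine of at least 0.93; nuclear partners also had to be found by BLAST+ 2.17.0 in the mitochondrial genome over 90% of their length at 98% identity. Alternatives were RLE, total-read, miRNA and mitochondrial scaling, no filter, a filter of 10 counts in 3 libraries with a mean of 1 CPM, DESeq2 1.42.0, limma-trend 3.58.1 with a prior count of 2, structural features left out, a replicate block and each library left out. Adjacent library numbers were taken as the isolations in that block, though the labels do not say which libraries share an isolation. Deviations from the genotype means correlated at 0.40, 0.24 and 0.23 for adjacent numbers, against −0.29 to 0.12 for other pairs. With 3 libraries per genotype these deviations are not independent, so the correlations cannot settle the pairing. The edgeR steps were tested on simulated data. Python 3.11.15 with pandas 2.3.3, numpy 2.4.6 and matplotlib 3.10.9 made tables and figures.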

Additional observations from a re-analysis of the deposited data

How the results depend on the processing

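The 21 higher calls over all lengths kept 21 shared calls under RLE, miRNA and mitochondrial scaling, both filter alternatives, DESeq2, limma-trend, removal of structural features, the replicate block and each library left out; total-read scaling lost ATMG01200. The counts were 20 to 23 under these settings, 21 to 23 with 1 library left out and 22 with the replicate block. Not counting members with a partner left 3. Lower calls were 0, but 3 by total reads (ATMG00140, ATMG00810 and ATMG01260) and 1 without a filter (ATMG00710). At 21-24 nt there was 1 lower call by total reads; at 25-28 nt the 1 lower call became 0 with miRNA scaling and 0 to 1 with 1 library left out. The 1 member more positive at 18-20 nt became 0 by total reads and 0 to 1 with 1 library left out, and the 4 more negative became 2 to 6. The share ratios of 5.79 and 12.1 became 0.925 and 1.92 without members that have a partner, which also takes out nearly all members with many paps1-3 reads, since only members with 500 reads or more were compared. The median log2 fold change, 2.66, was 1.84 by total reads, 3.02 with miRNA scaling, 0.14 without a filter, where all 88 members enter, and 2.10 to 2.60 with 1 library left out, where the filter keeps 34 to 36 members. For the scalings the cause was not tested. All 255 alternative values of the 15 named members kept direction and call. Reads per library limit the 61 members under 100 reads, and 55 had no test.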
